A study of Mus musculus with 9 samples.

Results

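DEAD and DEAH box RNA helicases were examined in RAW264.7 cells, a mouse macrophage line grown as 1 line and not as separate donors. Of 28137 genes in the deposited table, 51 were members, 36 with a Ddx symbol and 15 with a Dhx symbol. They were taken by name, as protein-coding genes in GENCODE M21 whose symbol starts with Ddx or Dhx and a number, and Ddx58 and Dhx58, the viral RNA sensors of this naming family, were left out. RNA-seq was available for 9 libraries, 3 with a control siRNA (NC siRNA), 3 with siRNA against SFRP2, a secreted modulator of Wnt signaling, and 3 with siRNA against RAB6A, a small GTPase of Golgi transport. Per the labels, all 9 cultures were given 60 nM siRNA for 6 h, returned to complete medium for 12 h and kept with 100 ng/ml lipopolysaccharide (LPS) for 24 h, so that no culture without LPS served as a baseline, and the title of each library also carries the time 6 h, which the protocol leaves unexplained. The study's methods differ from these labels in the medium, the transfection reagent, the siRNA concentration and the time kept after transfection, and add IFN-γ to the polarization, and they do not describe the RAB6A siRNA group. The SFRP2 libraries are numbered siRNA-1 to siRNA-3, as are 3 different siRNAs of the study, and it is not stated whether each library had its own siRNA. Separate cultures are not stated either, so that p-values measure the spread between these libraries, which may be technical.

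DEAD box and DEAH box proteins are named after the letters of a motif in their helicase core, which binds and splits ATP. DEAD box proteins bind RNA and pry short duplexes apart locally, while DEAH box proteins move along RNA and strip it of proteins or partner strands. Members act at nearly every step in the life of RNA, from ribosome assembly in the nucleolus and splicing to export, translation and decay, and many are used by every cell. In macrophages, some members are also known for work in the recognition of viral RNA and in the induction of interferon and cytokines.

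The promoters of the gene pairs Ddx3x with Ddx3y and Ddx21 with Ddx50 are shown because the members of each pair changed unequally after RAB6A siRNA. Each is the 250 bases before the gene's start in RefSeq on GRCm38.p6, read along the gene's strand. Capitals mark TGACG, the core of the cAMP response element, or CCGGAA, the ETS core, on either strand.
Ddx3x promoter, chrX:13280772-13281021, + strand: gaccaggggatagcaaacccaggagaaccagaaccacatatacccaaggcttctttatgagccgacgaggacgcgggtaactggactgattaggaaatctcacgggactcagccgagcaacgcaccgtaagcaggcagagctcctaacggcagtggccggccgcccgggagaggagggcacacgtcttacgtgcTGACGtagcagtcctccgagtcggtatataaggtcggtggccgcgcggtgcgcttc
Ddx3y promoter, chrY:1286614-1286863, - strand: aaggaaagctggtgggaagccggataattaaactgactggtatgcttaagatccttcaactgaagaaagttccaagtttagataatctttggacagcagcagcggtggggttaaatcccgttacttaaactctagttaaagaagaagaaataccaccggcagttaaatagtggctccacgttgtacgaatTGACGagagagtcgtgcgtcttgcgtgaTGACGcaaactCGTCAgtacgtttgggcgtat
Ddx21 promoter, chr10:62602299-62602548, - strand: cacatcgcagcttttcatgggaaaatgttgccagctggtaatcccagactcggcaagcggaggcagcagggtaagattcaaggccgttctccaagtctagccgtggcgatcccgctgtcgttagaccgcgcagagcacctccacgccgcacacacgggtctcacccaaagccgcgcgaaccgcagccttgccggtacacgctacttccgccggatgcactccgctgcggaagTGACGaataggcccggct
Ddx50 promoter, chr10:62651219-62651468, - strand: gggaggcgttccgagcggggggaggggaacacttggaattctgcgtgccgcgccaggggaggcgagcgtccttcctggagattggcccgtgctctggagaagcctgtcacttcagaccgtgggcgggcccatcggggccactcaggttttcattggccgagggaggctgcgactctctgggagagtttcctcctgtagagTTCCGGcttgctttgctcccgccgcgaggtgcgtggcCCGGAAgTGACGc
TGACG was chosen after these 4 sequences were seen and lay in each of them, at 1 place in Ddx3x, 3 in Ddx3y, 1 in Ddx21 and 1 in Ddx50. RefSeq promoters were matched for 46 of the 51 members. TGACG was in 24 of them (52.2%) and in 17.9% of the 27025 promoters of the same length, and CCGGAA was in 16 (34.8%) and in 12.2%. The 24 include the 4 genes from which TGACG was chosen, which raises that share. The 27025 were not limited to expressed genes, unlike nearly all members, so that these shares do not compare like with like. TATAAA, a form of the TATA box, was in 0 of the 46 and in 13.0% of all. Only these exact letters were searched, so that other forms, such as TATATAAG in the Ddx3x sequence, were not counted. CACGTG, the E-box bound by Myc and related factors, was in 4 (8.7%) and in 6.05%. Both strands were searched, and no match in the 4 sequences shown overlapped another. TGACG was in 5 of the 7 members that rose after RAB6A siRNA, all of which had a promoter, and in 16 of the 31 members with a promoter that fell. These counts also include the 4 genes shown. CCGGAA was in 3 of the 7 and 11 of the 31, and CACGTG in 1 of the 7 and 2 of the 31. A link of any motif to the direction of change was not tested. These are matches of letters, and binding was not measured.

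Nearly all members were expressed. Of the 51, 49 had a mean of at least 0.5 FPKM (the count on a gene, relative to its exon length and to the total of its library) in every comparison and were tested. The other 2, Ddx4 and Ddx25, helicases of germ cells, were at 0 to 0.0405 FPKM in the 9 libraries. Ddx5, a nuclear co-regulator of transcription that also serves microRNA processing, was the most abundant member, at 202, 189 and 184 FPKM in NC siRNA, 208, 214 and 196 in SFRP2 siRNA and 123, 113 and 125 in RAB6A siRNA. It ranked 1 among members in all 3 groups. In NC siRNA it was followed by Ddx3x with a mean of 146 ± 6.5 FPKM (SD, n = 3), Ddx21 with 98.0 ± 2.43, Ddx39b with 53.9 ± 1.93 and Ddx46 with 48.9 ± 1.6. The ranges of these 5 genes did not overlap from Ddx5 down to Ddx21, whereas the lowest Ddx39b library, at 52.1 FPKM, lay close to the highest Ddx46 library, at 50.6. Ddx59, a less studied member, was the lowest gene tested, at 1.98 ± 0.0708 FPKM in NC siRNA.

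The summed level of the members was 1219 ± 26.0 FPKM in NC siRNA, 1256 ± 26.4 in SFRP2 siRNA and 687 ± 14.1 in RAB6A siRNA (SD, n = 3). They held 0.681% ± 0.0177, 0.703% ± 0.014 and 0.391% ± 0.00715 of all reads in these groups. The RAB6A libraries were lower than all others in both measures, and the NC and SFRP2 libraries overlapped. Ddx3x made up 24.0% of the difference of 533 FPKM between the NC and RAB6A means, Ddx5 13.3% and Ddx21 11.9%. All of these values are relative to the total of a library, and fewer cells of a state and less RNA per cell cannot be told apart in bulk RNA.

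**Figure D1:**
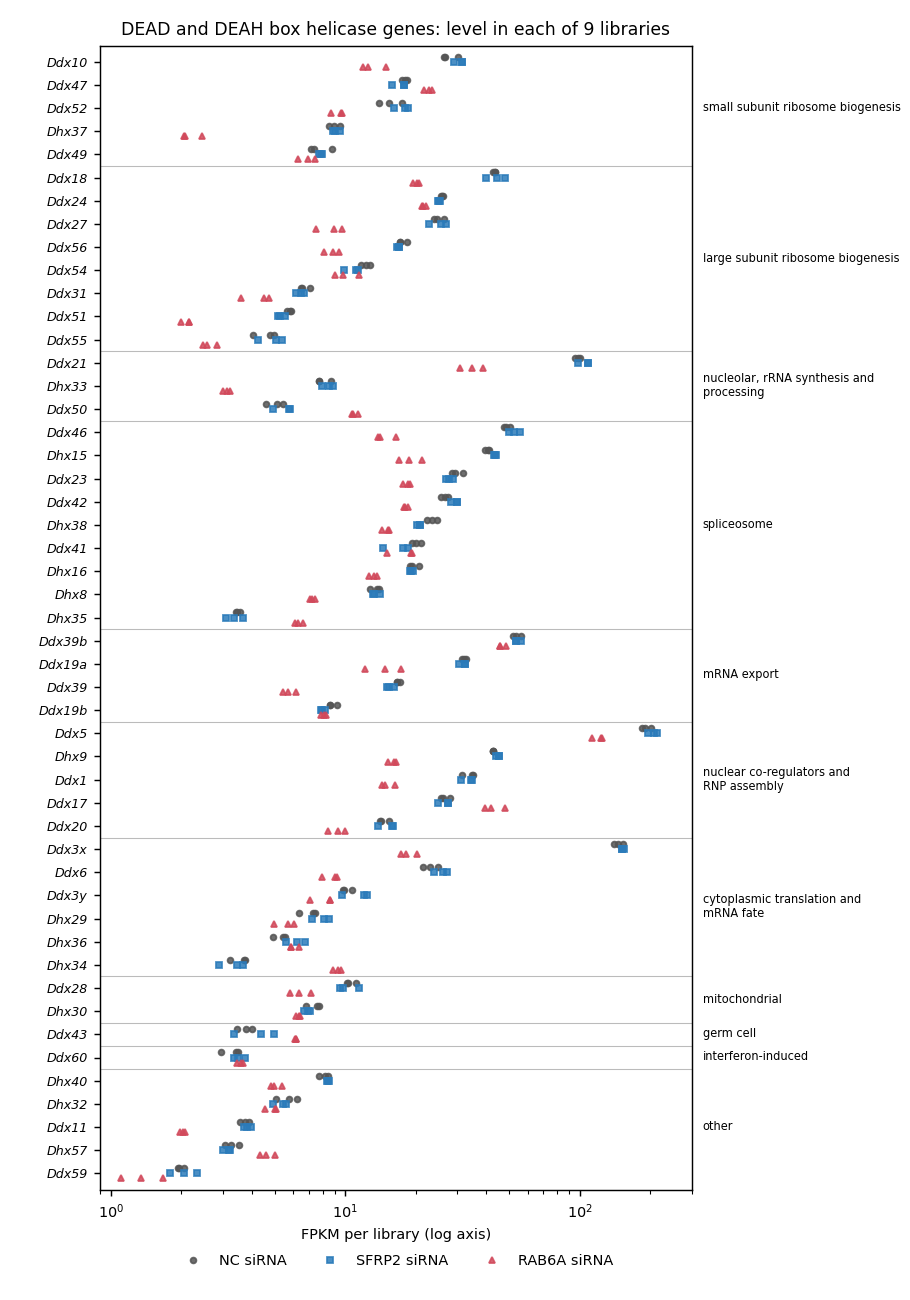
FPKM of the 49 tested members (log axis) in each of the 9 libraries, grouped by role; dots are NC siRNA, squares SFRP2 siRNA and triangles RAB6A siRNA. NC and SFRP2 libraries lie together for most genes, and the RAB6A libraries lie to the left for most, as for Ddx3x (18.6 against 146 FPKM), and to the right for Ddx17, Ddx50 and Dhx34.

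The libraries held 32758729 to 47149255 reads each, and the RAB6A libraries, with 32758729 to 37833881, were shallower than those of NC. All 8 macrophage markers and all 7 LPS response genes checked were at 1 FPKM or more in every library, while 5 of 8 fibroblast and epithelial markers and the 3 lymphocyte markers matched were below 1 throughout, with Col1a1 the highest at 1.32. Rab6a was at 24.3, 27.3 and 25.5 FPKM in NC siRNA, 26.6, 28.6 and 25.8 in SFRP2 siRNA and 21.2, 20.7 and 20.4 in RAB6A siRNA (log2 fold change of RAB6A against NC -0.31, adjusted p = 0.0024). The targeted transcript thus was lower in all 3 RAB6A libraries, by a small amount. In the same comparison 36.5% of the 12712 genes tested were called lower. A fall of this size was thus common, and whether it came from the siRNA was not tested. Sfrp2 was at 0.0197 to 0.0223 FPKM in NC siRNA and 0.0267 to 0.0478 in SFRP2 siRNA, at the limit of detection, so that the SFRP2 label could not be checked.

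Whether SFRP2 siRNA changed the helicases was asked first. No member passed the limma test between SFRP2 siRNA and NC (0 of 49), and no gene of the whole table did (0 of 12017, 0.0%). With voom on recovered reads, 7 genes were called higher and 35 lower, and 0 of them were members. The paper, in contrast, reports many differentially expressed genes for SFRP2 siRNA against control, more of them lower than higher. It used another test, DESeq2, with a minimum fold change, and its text names no helicase among these genes. The lack of calls over all genes thus depends on the test, and why the results differ was not tested. The log2 fold changes of members lay between -0.26 and 0.21, with a median of 0.02 beside -0.01 over all genes tested. At an unadjusted p under 0.05, 8 members stood apart (18.5% of all genes did), 3 on the higher side (6.12%, beside 7.73% of all genes) and 5 on the lower side (10.2%, beside 10.7%). The SFRP2 and NC libraries did not overlap for 4 members on the higher side (8.16%, beside 10.9% of all genes) and 8 on the lower side (16.3%, beside 13.9%). The shares of members thus lay close to those of all genes in each direction.

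The smallest unadjusted p-values on the higher side belonged to Ddx42, Dhx15 and Dhx36. Ddx42, a helicase tied to the U2 snRNP of the spliceosome, was at 27.4, 26.7 and 25.7 FPKM in NC siRNA and 30.0, 30.1 and 28.3 in SFRP2 siRNA (log2 fold change 0.14, SE 0.05, limma adjusted p = 0.21). Dhx15, which takes spent spliceosomes apart, was at 40.5, 40.9 and 39.5 against 43.2, 44.1 and 43.5 (0.11, SE 0.04, adjusted p = 0.21). Dhx36, which unwinds G-quadruplexes, was at 5.45, 5.55 and 4.93 against 6.24, 6.72 and 5.59 (0.21, SE 0.09, adjusted p = 0.25). In each of these genes all SFRP2 libraries were above all NC libraries, by less than the test across all genes could call.

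On the lower side they belonged to Dhx38, Ddx41 and Ddx54. Dhx38, which remodels the spliceosome before the second splicing step, was at 23.4, 22.4 and 24.7 FPKM in NC siRNA and 20.8, 20.2 and 20.8 in SFRP2 siRNA (log2 fold change -0.19, SE 0.05, adjusted p = 0.18). Ddx41, a spliceosome helicase also known as a DNA sensor, was at 20.1, 19.3 and 21.1 against 18.5, 14.5 and 17.7 (-0.26, SE 0.09, adjusted p = 0.23). Ddx54, of large subunit assembly, was at 12.2, 11.7 and 12.8 against 11.3, 9.91 and 11.1 (-0.18, SE 0.07, adjusted p = 0.23). The groups did not overlap for these genes either, and for Ddx41 a single SFRP2 library at 14.5 FPKM stood below the others. With length and GC content corrected, Ddx42 stayed at 0.13, whereas Dhx15 came to 0.02, Dhx36 to 0.06, Dhx38 to -0.09, Ddx41 to -0.14 and Ddx54 to -0.07.

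RAB6A siRNA was followed by lower levels of most helicases. Against NC, 36 of 49 members fell (73.5%) and 7 rose (14.3%) at an adjusted p under 0.05, whereas over all 12712 genes tested 36.5% fell and 37.6% rose. With an absolute log2 fold change over 1 as well, 15 members fell (30.6%, beside 12.8% of all genes) and 2 rose (4.08%, beside 17.3%). The median log2 fold change was -0.65 over the members and 0.03 over all genes, and members ranged from -2.97 to 1.36. The RAB6A and NC libraries did not overlap for 39 members on the lower side (38.2% of all genes) and 8 on the higher side (39.2%). Ddx members fell in 26 of 34 cases and Dhx members in 10 of 15. Correcting for gene length and GC content brought the median of the members to -0.43 and that of all genes to 0.09, with 32 members lower and 10 higher (33.5% and 41.1% of 12535 genes). It moved the values of 13 called members by over 1.5 times, of which Dhx29 (-0.02), Ddx39b (-0.06), Ddx24 (-0.11) and Ddx59 (-0.26) no longer passed. Those that still passed were at -0.22 (Ddx42), -0.32 (Ddx20), -0.35 (Ddx31), -0.36 (Ddx5 and Dhx40), -0.43 (Ddx52), -0.49 (Ddx55), 0.64 (Ddx47) and 0.78 (Dhx57). Of the 15 that fell by over 1, Ddx1, Ddx10 and Dhx15 (each -0.82), Ddx19a (-0.87) and Ddx18 (-0.89) no longer did. Each was still called lower. On the higher side Dhx35 came to 1.16, past this threshold as well. Summed macrophage markers were at 2961 to 3255 FPKM in NC and 2035 to 2184 in RAB6A siRNA, and summed LPS response genes at 4437 to 4720 and 2510 to 2686. Both lists were mixed: 4 of 8 macrophage markers fell and 1, Ptprc, rose (0.17), and 4 of 7 LPS response genes fell and 2, Ptgs2 (0.68) and Il1b (0.21), rose, while the most abundant genes that fell were Lyz2 (-2.03) and Acod1 (-1.98). The part of these genes in the change of the helicases was not tested.

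**Figure D2:**
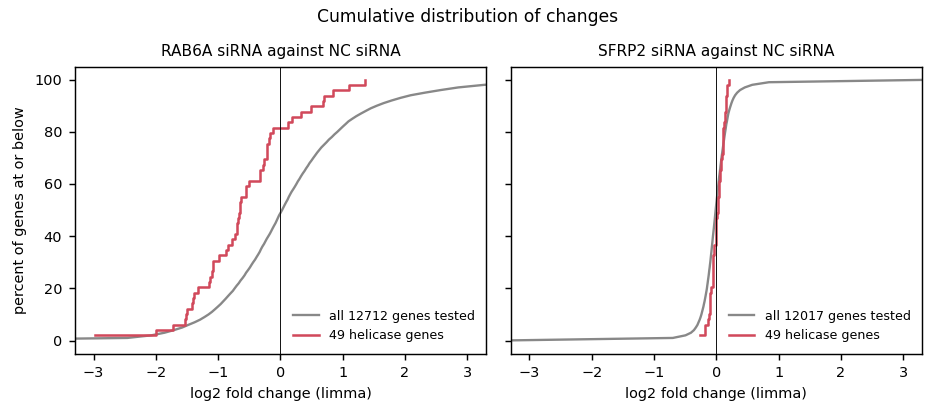
Percent of genes (y axis) with a log2 fold change at or below the value on the x axis, for the members and for all genes tested; left, RAB6A siRNA against NC; right, SFRP2 siRNA against NC. On the left the curve of the members lies to the left of the curve of all genes (medians -0.65 and 0.03), and on the right both are steep around 0 (medians 0.02 and -0.01).

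The counts are also given by level, and the levels were not tested against each other. Of the 16 with a mean of 20 FPKM or more over the 6 libraries, 14 fell and 2 rose, and of the 2227 genes at this level 44.1% fell and 35.8% rose. Of the 25 members from 5 to under 20 FPKM, 18 fell and 2 rose, with 42.7% of 4321 genes falling and 35.0% rising. Of the 8 members from 0.5 to under 5 FPKM, 4 fell and 3 rose, with 29.4% of 6164 genes falling and 40.0% rising.

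Helicases of ribosome assembly fell in 13 of 16 cases and rose in 2 (36.5% of all genes tested fell and 37.6% rose). All 8 members of large subunit assembly fell, with log2 fold changes from -1.51 to -0.26. The largest of these changes was that of Ddx27, which acts on precursors of the large subunit, at 26.4, 23.9 and 24.7 FPKM in NC and 7.47, 8.97 and 9.71 in RAB6A siRNA (2.86-fold lower, SE 0.1 on the log2 scale, adjusted p = 9.5e-06). Ddx51 fell by 1.41 on the log2 scale, Ddx18 by 1.10 and Ddx56 by 0.99. Ddx54 (-0.28) and Ddx24 (-0.26) changed least, and the call of each was lost under at least 1 alternative.

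In small subunit assembly 3 of 5 members fell and 1 rose (36.5% and 37.6% of all genes tested). Dhx37, which remodels the U3 snoRNP of the early small subunit, was at 9.51, 8.53 and 8.98 FPKM in NC, 9.54, 8.84 and 9.02 in SFRP2 siRNA and 2.06, 2.08 and 2.46 in RAB6A siRNA (log2 fold change -1.99, SE 0.09, adjusted p = 2.5e-06). It was 3.97-fold lower, and the RAB6A libraries lay far below the rest. Ddx10 fell by 1.08 and Ddx52 by 0.73 on the log2 scale, Ddx49 did not pass (-0.17, adjusted p = 0.17), and Ddx47 rose (0.33, from 17.9 ± 0.437 to 22.6 ± 0.871 FPKM, adjusted p = 0.00096). Ddx47 moved from rank 21 among the members in NC to rank 5 in RAB6A siRNA.

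Of the nucleolar helicases of rRNA synthesis and processing, Ddx21 and Dhx33 fell and Ddx50 rose. Ddx21, which couples rRNA transcription by RNA polymerase I to rRNA processing, was at 100, 98.4 and 95.4 FPKM in NC, 108, 108 and 98.5 in SFRP2 siRNA and 31.0, 34.6 and 38.6 in RAB6A siRNA (log2 fold change -1.50, SE 0.08, adjusted p = 4.7e-06). Dhx33, a factor of rRNA gene transcription, fell from 8.03 ± 0.541 to 3.13 ± 0.107 FPKM (-1.33, adjusted p = 4.8e-06). Ddx50, the paralog of Ddx21, was at 5.13, 5.41 and 4.59 FPKM in NC, 5.74, 5.79 and 4.9 in SFRP2 siRNA and 11.3, 10.8 and 10.7 in RAB6A siRNA (1.10, SE 0.08, adjusted p = 1.2e-05).

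Among spliceosome helicases 7 of 9 fell and 1 rose (36.5% and 37.6% of all genes tested). Ddx46, which acts on the U2 snRNP when the branch site is first bound, was at 48.4, 50.6 and 47.5 FPKM in NC, 49.8, 52.2 and 55.6 in SFRP2 siRNA and 13.8, 14.0 and 16.4 in RAB6A siRNA (3.31-fold lower, log2 fold change -1.73, SE 0.08, adjusted p = 2.4e-06). Dhx15 fell by 1.09 on the log2 scale and Dhx8, which releases spliced mRNA, by 0.88. Ddx23, Dhx38, Ddx42 and Dhx16, which act at other stages of the splicing cycle, fell by 0.70, 0.65, 0.56 and 0.56. Dhx35, found in the catalytic spliceosome, went the other way, with 3.57, 3.44 and 3.42 FPKM in NC, 3.66, 3.09 and 3.34 in SFRP2 siRNA and 6.58, 6.3 and 6.08 in RAB6A siRNA (0.84, SE 0.07, adjusted p = 2.1e-05). Ddx41 did not pass (-0.19, adjusted p = 0.12).

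Of the 4 members of mRNA export, 3 fell (36.5% of all genes tested). Ddx39, an ATPase of the export pathway, was at 16.7, 16.7 and 17.1 FPKM in NC, 15.3, 15.1 and 16.2 in SFRP2 siRNA and 6.16, 5.69 and 5.45 in RAB6A siRNA (2.89-fold lower, log2 fold change -1.53, SE 0.06, adjusted p = 1.9e-06). Ddx39b, its paralog in the TREX complex, was at 52.1, 53.7 and 55.9 FPKM in NC, 53.5, 53.3 and 55.9 in SFRP2 siRNA and 48.4, 45.7 and 45.8 in RAB6A siRNA. The change of Ddx39b was small (-0.21, SE 0.05, adjusted p = 0.0095), its call was lost under at least 1 alternative, and it stood at rank 2 of the members after RAB6A siRNA against rank 4 in NC. Ddx19a, which releases mRNA at the nuclear pore, fell by 1.13, and Ddx19b did not pass (-0.12, adjusted p = 0.11).

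Of the 5 nuclear co-regulators and assembly factors, 4 fell and 1 rose (36.5% and 37.6% of all genes tested). Dhx9, or RNA helicase A, fell from 42.6 ± 0.047 to 15.9 ± 0.625 FPKM (log2 fold change -1.42, adjusted p = 1.4e-06), and Ddx1, a partner of the tRNA ligase complex, from 33.7 ± 1.81 to 15.1 ± 1.03 (-1.15, adjusted p = 7e-06). Ddx5 fell by 0.67 on the log2 scale (SE 0.07, adjusted p = 6.3e-05) and Ddx20, of the SMN complex that loads snRNAs with proteins, by 0.65. Ddx17, the paralog of Ddx5, rose, with 27.9, 25.5 and 26.1 FPKM in NC, 27.4, 27.5 and 24.9 in SFRP2 siRNA and 47.9, 41.9 and 39.3 in RAB6A siRNA (0.69, SE 0.08, adjusted p = 0.00016). It moved from rank 14 in NC to rank 3.

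Members of cytoplasmic translation and mRNA fate held the largest fall and the largest rise of the whole set. Ddx3x, which helps ribosomes start on structured mRNAs and also acts in antiviral signaling, was at 153, 145 and 140 FPKM in NC, 151, 151 and 155 in SFRP2 siRNA and 17.2, 18.2 and 20.3 in RAB6A siRNA. It was 7.84-fold lower after RAB6A siRNA than in NC (log2 fold change -2.97, SE 0.07, adjusted p = 5.1e-07) and went from rank 2 to rank 9 of the members. Dhx34, a factor of nonsense-mediated decay, was at 3.75, 3.71 and 3.21 FPKM in NC, 3.44, 2.89 and 3.66 in SFRP2 siRNA and 9.33, 9.62 and 8.85 in RAB6A siRNA (2.57-fold higher, log2 fold change 1.36, SE 0.08, adjusted p = 6.3e-06). No RAB6A library of these genes came near a library of the other groups.

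Of the other members of this role, Ddx6, a repressor of translation in P-bodies, fell by 1.39 on the log2 scale (adjusted p = 5.9e-06). Dhx29, which helps ribosomes scan, and Ddx3y each fell by 0.33 (adjusted p = 0.018 and 0.014), and both calls were lost under at least 1 alternative. Dhx36 did not pass (0.18, adjusted p = 0.061).

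The mitochondrial members Ddx28 and Dhx30, which serve mitochondrial ribosome assembly, had log2 fold changes of -0.70 and -0.22 (adjusted p = 0.00019 and 0.023), and the call of Dhx30 was lost under at least 1 alternative. Ddx43, a helicase best known from germ cells and tumors, was at 3.78, 4.01 and 3.44 FPKM in NC, 4.36, 4.98 and 3.35 in SFRP2 siRNA and 6.16, 6.1 and 6.14 in RAB6A siRNA (0.70, SE 0.08, adjusted p = 0.0001). Ddx60, an interferon-induced gene of antiviral defence, did not pass (0.12, SE 0.09, adjusted p = 0.25), with 3.28 ± 0.287 FPKM in NC and 3.56 ± 0.111 in RAB6A siRNA. Of the remaining 5 members, Ddx11, a DNA helicase of sister chromatid cohesion, fell by 0.84, Dhx40 by 0.68 and Ddx59 by 0.51, Dhx57 rose by 0.49, and Dhx32 did not pass (-0.22, adjusted p = 0.067). The call of Ddx59 was lost under at least 1 alternative.

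**Figure D3:**
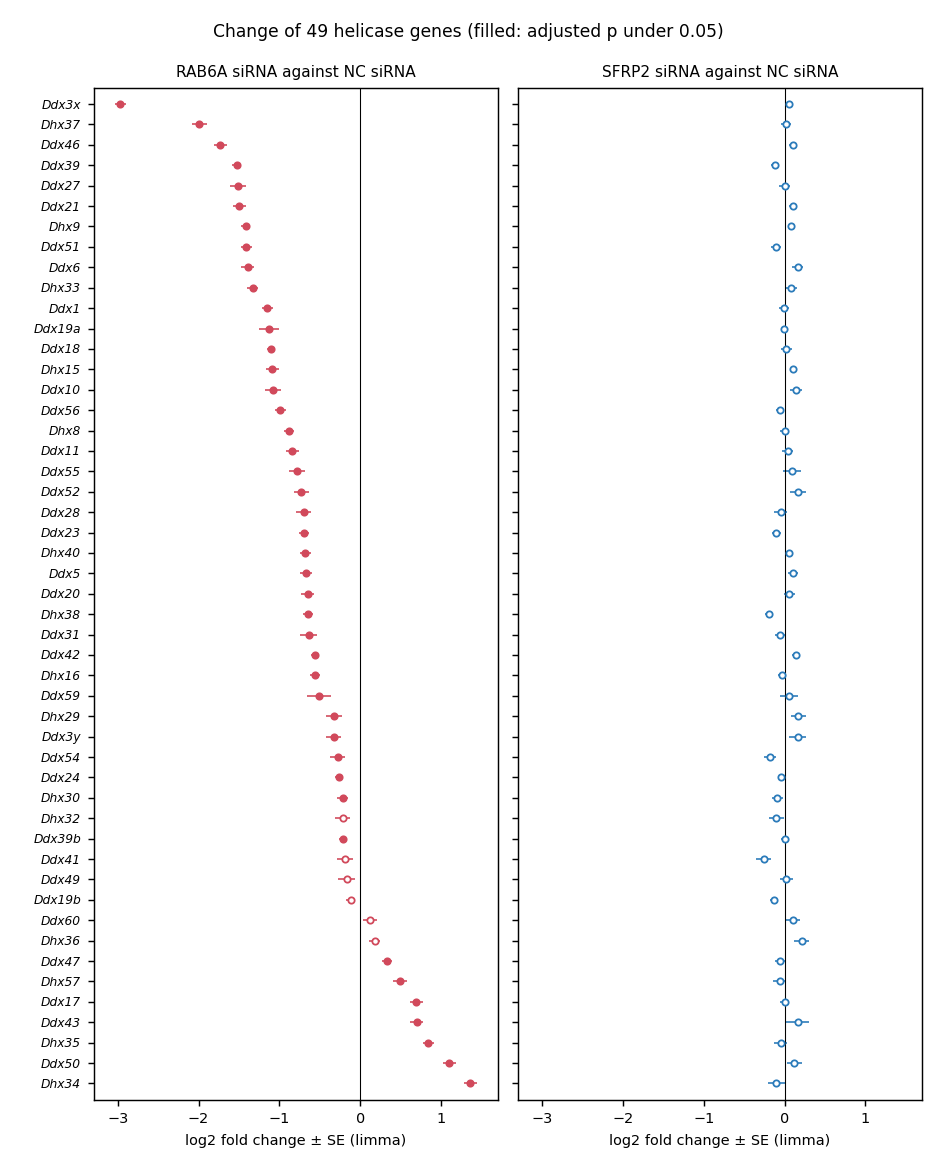
The log2 fold change ± SE (limma, 3 libraries per group) of the 49 tested members, in the same order in both panels; left, RAB6A siRNA against NC; right, SFRP2 siRNA against NC; filled points passed an adjusted p of 0.05. On the left values run from -2.97 (Ddx3x) to 1.36 (Dhx34), and on the right all lie between -0.26 and 0.21 with no filled point.

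The direct comparison of RAB6A siRNA with SFRP2 siRNA, which shares the RAB6A libraries with the comparison above, gave 34 lower and 7 higher members of 49 (35.8% and 37.6% of 12764 genes), with a median of -0.66 (-0.41 with length and GC content corrected). Ddx3x was 3.03 lower on the log2 scale (log2 fold change -3.03, adjusted p = 9.6e-07) and Dhx34 was higher by 1.46 (adjusted p = 1.5e-05). Ddx54 and Dhx30, which fell against NC, did not pass here (-0.10 and -0.13, adjusted p = 0.4 and 0.089).

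The ratios of paralog pairs stood apart in RAB6A siRNA. Ddx3x and Ddx3y are X- and Y-linked copies with 84.6% identical bases over their aligned coding sequences, and their FPKM ratio was 14.3, 14.6 and 14.4 in NC, 12.5, 12.2 and 16.0 in SFRP2 siRNA and 2.0, 2.59 and 2.36 in RAB6A siRNA. Ddx3y itself was at 10.7, 9.89 and 9.77 FPKM in NC, 12.0, 12.4 and 9.64 in SFRP2 siRNA and 8.6, 7.05 and 8.59 in RAB6A siRNA. The lower ratio thus came with a far larger change of Ddx3x than of Ddx3y.

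Ddx21 and Ddx50 lie next to each other on the - strand of chromosome 10, with left ends 35.6 kb apart, and moved in opposite directions. Their ratio was 19.5, 18.2 and 20.8 in NC, 18.8, 18.7 and 20.1 in SFRP2 siRNA and 2.74, 3.2 and 3.62 in RAB6A siRNA. Ddx5 and Ddx17 also moved in opposite directions, and their ratio was 7.24, 7.4 and 7.03 in NC, 7.6, 7.8 and 7.86 in SFRP2 siRNA and 2.57, 2.71 and 3.18 in RAB6A siRNA. In both pairs the more abundant paralog fell and the less abundant one rose.

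The ratio of Ddx39b to Ddx39 went up, from 3.12, 3.22 and 3.26 in NC and 3.5, 3.53 and 3.46 in SFRP2 siRNA to 7.85, 8.03 and 8.4 in RAB6A siRNA. Ddx19a, on chromosome 8 beside Ddx19b, was at 31.5, 32.6 and 32.0 FPKM in NC, 30.7, 32.4 and 32.5 in SFRP2 siRNA and 12.1, 14.8 and 17.3 in RAB6A siRNA. Ddx19b was at 8.59, 8.58 and 9.18 FPKM, then 7.95, 7.91 and 8.23, and 7.91, 8.24 and 8.12 in the same groups. The ratio of these genes was 3.66 ± 0.159 in NC, 3.97 ± 0.121 in SFRP2 siRNA and 1.82 ± 0.299 in RAB6A siRNA (SD, n = 3). They share 93.2% of aligned coding bases, with an identical run of 275 bases, so that reads could be assigned to either and their separate levels are uncertain.

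For all 5 pairs the RAB6A ratios did not overlap those of NC (p = 0.1 in a two-sided exact permutation test, which cannot give less with groups of 3, and 0.115 adjusted over 15 tests). Between SFRP2 siRNA and NC, the ratios of Ddx3x to Ddx3y and of Ddx21 to Ddx50 overlapped (exact p = 0.4 and 0.7), and the other 3 were slightly higher in SFRP2 siRNA without overlap (exact p = 0.1).

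**Figure D4:**
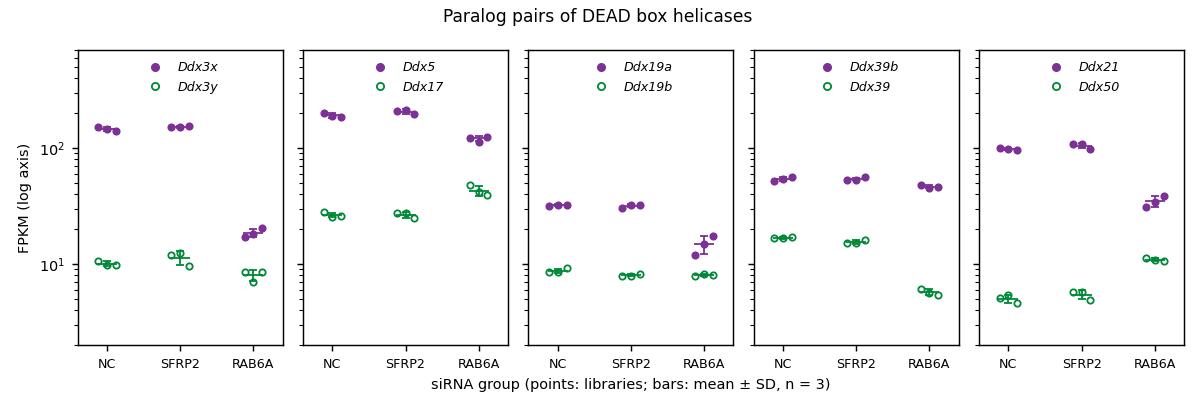
FPKM (log axis) of both genes of 5 paralog pairs in the 3 siRNA groups; points are libraries and bars the mean ± SD (n = 3). In RAB6A siRNA Ddx3x lies near Ddx3y (ratio 2.32 against 14.4 in NC), Ddx5 and Ddx17 and likewise Ddx21 and Ddx50 draw together, and Ddx39 and Ddx39b draw apart.

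Some values can hold reads of other genes, since the strand used in counting is not stated. Exons of Ddx17, Ddx28, Ddx39, Ddx49, Ddx54, Dhx30, Dhx32 and Dhx57 overlap a protein-coding gene on the opposite strand, and those of Ddx41, Ddx43, Ddx54, Ddx59 and Dhx57 overlap an antisense or other noncoding transcript there. Exons of Ddx5, Ddx39b and Dhx30 also hold small noncoding RNAs on the same strand. Of the 7 members that rose, Ddx17, Ddx43 and Dhx57 are among these, and Dhx34, Ddx50, Dhx35 and Ddx47 are not.

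RNA helicases of other names and cofactors of the helicases were counted in the same way. Of 16 other RNA helicases tested, 11 fell and 2 rose after RAB6A siRNA against NC, with a median of -0.65. Over all genes tested 36.5% fell and 37.6% rose. The largest falls were those of Mtrex, the helicase of the nuclear exosome (23.1, 24.3 and 22.8 FPKM in NC; 7.91, 7.85 and 8.32 in RAB6A siRNA; log2 fold change -1.53, adjusted p = 1.4e-06), and Supv3l1, of mitochondrial RNA decay (10.7, 10.0 and 10.1 FPKM; 4.54, 4.28 and 4.66; -1.18, adjusted p = 4.6e-06). Those that rose were Mov10, an antiviral helicase (22.9, 22.4 and 22.5 FPKM; 38.1, 37.8 and 37.7; 0.74, adjusted p = 8.1e-06), and Eif4a2, an initiation factor (30.1, 26.7 and 26.8 FPKM; 38.5, 38.1 and 36.7; 0.44, adjusted p = 0.00049).

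Of 24 cofactors tested, 21 fell and 3 rose (36.5% and 37.6% of all genes tested), with a median of -0.60. Nkrf, a G-patch partner of Dhx15, went from 7.65, 6.56 and 6.57 FPKM in NC to 1.79, 2.26 and 2.53 in RAB6A siRNA (log2 fold change -1.63, adjusted p = 2.5e-05). Alyref, the export adaptor loaded with Ddx39b, went from 25.2, 23.8 and 25.4 to 7.77, 9.15 and 10.6 (-1.44, adjusted p = 1.7e-05). The largest rises were those of the splicing factors Rbm5, from 8.52, 8.04 and 7.92 to 12.2, 11.3 and 10.7 (0.47, adjusted p = 0.00054), and Sugp1, from 11.6, 10.9 and 11.5 to 14.7, 15 and 14 (0.36, adjusted p = 0.00083). With SFRP2 siRNA against NC, 0 genes of either list passed, as for all genes, and the medians were -0.03 and 0.04.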

How the data were processed

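Total RNA of RAW264.7 cells was sequenced as paired-end mRNA libraries, 3 per siRNA group. The deposited values are FPKM of each gene, made by the authors, and the submitters' processing notes name HISAT2 and featureCounts of the Subread package. Versions, genome build, strand setting and further normalization are not given in the sources used here. Of 28137 Ensembl identifiers, 27533 were named from GENCODE M21 (GRCm38). FPKM times exon length came in whole steps, taken as 1 read (27077 genes, 98.3% of those named, within 0.03 read), which gave depths and read shares. The mates of a pair appeared to be counted separately. Depths and the reads given to voom are thus single reads and not fragments.

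Groups were taken from the labels. Tests were run with limma 3.58.1 in R 4.3.3 (lmFit, eBayes with trend) on log2(FPKM + 0.1), for genes whose FPKM averaged 0.5 or more in the 6 libraries compared, with Benjamini-Hochberg adjustment over all genes tested and calls at an adjusted p of 0.05. Fold changes are on the log2(FPKM + 0.1) scale, which understates those of low genes. The authors used DESeq2 per the study's methods, whereas limma was the main test here because the deposited unit is FPKM, with voom run on the whole reads as 1 of the alternatives. The fits were tested on simulated data. Ratios of paralogs were compared with exact permutation tests written with numpy 2.4.6 (Python 3.11.15), with Benjamini-Hochberg adjustment in statsmodels. Coding sequences were aligned with Biopython 1.88.

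Members and role lists were chosen with earlier results of these data known, and lists were written from general knowledge. For the 5 largest rises and falls past the test per comparison with NC, values of every library of the groups compared are given. Where none passed, they are given for the 3 smallest unadjusted p in each direction. The same holds for the 5 most abundant members in NC, 5 paralog pairs and Rab6a. It also holds for the 2 largest rises and falls in each list of other genes. Sfrp2 is given as ranges in NC and SFRP2 siRNA. For each comparison 18 alternatives were run, namely other pseudocounts, filters, scalings and spread estimates, the replicate number as a block, correction for length and GC content, voom on recovered reads, and each library left out in turn.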

Additional observations from a re-analysis of the deposited data

How the results depend on the processing

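Between SFRP2 siRNA and NC, no member passed the test under any of the 18 alternatives. Between RAB6A siRNA and NC, 36 of the 43 calls held in all 18, 7 were lost in at least 1 (Ddx24, Ddx39b, Ddx3y, Ddx54, Ddx59, Dhx29 and Dhx30), none of the 43 changed direction, and 4 members were gained in at least 1 (Ddx19b, Ddx60, Dhx32 and Dhx36). Against SFRP2 siRNA, 37 of 41 calls held, 4 were lost in at least 1 alternative (Ddx24, Ddx39b, Ddx59 and Dhx29), 1 changed sign (Ddx24, -0.22, at 0.08 with length and GC content corrected), and 5 members were gained (Ddx19b, Ddx49, Ddx60, Dhx30 and Dhx36). That correction moved 13 of the 43 values against NC and 11 of the 41 against SFRP2 siRNA by over 1.5 times. With each library left out in turn, 39 to 42 members were called against NC and 40 to 42 against SFRP2 siRNA. The members called higher with an absolute log2 fold change over 1 against NC went from 2 to 1 with a pseudocount of 1. With length and GC content corrected, Dhx35 (1.16) was also called higher by over 1 against NC, beside Ddx50 (1.04) and Dhx34 (1.41). Against SFRP2 siRNA there was 1 such member, and 2 with a pseudocount of 0.01, quantile normalization or voom, 3 with the correction for GC content and length, with or without the replicate block, and 1 to 2 with a library left out (2 without SFRP2 replicate 1, SFRP2 replicate 2 or RAB6A replicate 3). The cause was not tested. The numbers of replicates did not pair the libraries (correlations of same-numbered deviations from -0.0648 to 0.0539), and with the replicate number as a block 41 members were called against NC, 41 against SFRP2 siRNA and 0 between SFRP2 siRNA and NC. With 3 libraries per group, exact tests could not go below p = 0.1. Depth limits Ddx4, Ddx25 and Sfrp2.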
